A study of Mus musculus with 23 samples.

Results

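The genes described here are the 10 members of the MLX, Mondo and MAX network that were chosen by name from the transcript records of the series, of 22619 named genes in all. They are the common partner Mlx, the Mondo factors Mlxip and Mlxipl, Max with its partners Mnt, Mga, Mxd1 and Mxi1, and the Mondo target genes Txnip and Arrdc4. Each was measured by RNA-seq of mouse embryos of the strain B6D2F1 (C57BL/6xDBA/2) as FPKM, fragments per kilobase of transcript scaled to the mapped fragments of the library, summed over the transcripts of a gene. Small interfering RNA (siRNA) was injected into oocytes at the germinal vesicle stage, and the oocytes were matured in vitro and fertilized. Embryos received siEtv5, siMlx or siRfx1, which target the mRNAs of 3 transcription factors, or the control siCtrl, and were collected as 2-cell embryos 36 h post fertilization (hpf) or as late zygotes at 14 hpf. The hours are those of the labels, which name in vitro fertilization, while the study's text gives later hours at both stages and injection of sperm, a difference that could not be settled here. There were 3 libraries in each of the 8 groups except siEtv5 2-cell embryos, which had 2, so that 23 libraries entered. All groups, siCtrl included, share the injection, the maturation in vitro and the removal of the zona pellucida. Nothing in the labels says whether replicate libraries came from separate collections, so p-values measure only the spread between these libraries, which may be technical.

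MLX is a basic helix-loop-helix leucine zipper protein that dimerizes with the Mondo proteins, MondoA (encoded by Mlxip) and ChREBP (encoded by Mlxipl). These dimers respond to phosphorylated glucose and bind E-box-like elements in the promoters of metabolic genes, of which Txnip and Arrdc4 are the best known direct targets. MAX is the corresponding partner of MYC, of the MXD repressors and of MNT and MGA. MXD1 and MNT can also pair with MLX, which joins the branches into a single network. In the mouse zygote most mRNA was deposited by the oocyte, and much of it is lost by the 2-cell stage, when the embryo's own genome is transcribed on a large scale.

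RefSeq promoters (GRCm38.p6, 250 bases before to 50 after the annotated start) were found for all 10 members, in 13 windows. The bases before the start are shown only for the 2 Mondo target genes and for Mlx, the target of siMlx. Capitals mark CACGTG, the E-box read by this family, and CACGAG, its variant in the Txnip promoter. CACGAG was chosen after the sequence was seen.
Txnip (chr3:96557707-96557956, plus strand): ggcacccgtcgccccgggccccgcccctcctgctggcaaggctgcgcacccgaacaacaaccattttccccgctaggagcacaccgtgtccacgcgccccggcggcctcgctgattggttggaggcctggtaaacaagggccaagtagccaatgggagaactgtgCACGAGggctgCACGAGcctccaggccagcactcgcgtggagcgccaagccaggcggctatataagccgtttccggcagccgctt
Arrdc4 (chr7:68749239-68749488, minus strand): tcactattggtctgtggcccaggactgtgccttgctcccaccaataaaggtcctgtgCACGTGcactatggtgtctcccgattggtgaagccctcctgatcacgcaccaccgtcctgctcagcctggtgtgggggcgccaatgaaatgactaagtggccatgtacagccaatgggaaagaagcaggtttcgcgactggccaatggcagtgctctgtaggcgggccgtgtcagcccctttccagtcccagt
Mlx (chr11:101087040-101087289, plus strand): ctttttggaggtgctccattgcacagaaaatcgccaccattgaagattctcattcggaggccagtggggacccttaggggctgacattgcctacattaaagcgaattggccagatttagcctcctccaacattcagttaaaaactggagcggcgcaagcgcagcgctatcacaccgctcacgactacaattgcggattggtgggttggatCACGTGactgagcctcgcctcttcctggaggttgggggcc
The Txnip window held CACGAG at 2 positions, -85 and -74 from the annotated start. CACGTG began at -193 in Arrdc4 and at -40 in Mlx. The window of Mlxip, which is not shown, held neither CACGTG nor CACGAG. Among the 13 member windows 5 held CACGTG, read on both strands, against 7.15% of 32851 promoter windows, and 3 held CACGAG, against 6.47%. The strict consensus of the carbohydrate response element (ChoRE), a pair of E-boxes spaced by 5 bases whose second box must end in TG, was found in none of the 13 windows and in 0.119% of all windows. The pair of CACGAG in Txnip has this spacing but ends in AG. A looser pattern, CACGNG at both ends of 5 free bases, chosen after the sequence was seen and read on both strands, was in 1 of the 13 windows, that of Txnip, and in 0.0487% of all windows. A match is a description of the sequence and does not show a binding site.

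The libraries held 404 to 991 Mb of aligned sequence outside the siRfx1 2-cell group, whose libraries held 119 to 174 Mb and detected 7378 to 8071 genes at 1 FPKM or more. The targeted genes were low in their own groups: Etv5 was 5.55 to 8.98 FPKM in siEtv5 and 43.7 to 49.3 FPKM in siCtrl 2-cell embryos, and Rfx1 was 1.43 to 1.53 FPKM in siRfx1 and 8.12 to 10.7 FPKM in siCtrl 2-cell embryos. They were also low in other groups: Etv5 was 6.73 to 12.6 FPKM in siRfx1 2-cell embryos, Rfx1 was 1.85 to 2.88 FPKM in siMlx and 4.39 to 4.94 FPKM in siEtv5 2-cell embryos, and Rfx1 was 0.863 to 1.33 FPKM in siMlx zygotes, against 3.05 to 3.52 FPKM in siCtrl zygotes. All 8 oocyte and early embryo markers were present at a mean of 1 FPKM or more in every group except siRfx1 2-cell embryos, where Npm2 was listed at 0. Of 7 markers of the 2-cell embryo, Tcstv1 and Tcstv3 were listed at 0 in all groups, and the summed FPKM of the 7 was 759 to 904 in siEtv5, 60.2 to 236 in siMlx, 149 to 184 in siRfx1 and 373 to 514 in siCtrl 2-cell embryos. The 8 oocyte and early embryo markers summed to 6354 to 6558 FPKM in siEtv5 and 3072 to 4538 FPKM in siCtrl 2-cell embryos. The 10 markers of cumulus and granulosa cells summed to at most 20.7 FPKM in any library, and Inha was listed at 0 in every group. In zygotes the 5 sperm and spermatid genes summed to 9.88 to 35.1 FPKM in siEtv5 and 22.7 to 24.8 FPKM in siMlx. Their sum was 16.6 to 28.4 FPKM in siRfx1 and 21.5 to 34.5 FPKM in siCtrl zygotes. It was at most 14.0 FPKM in any 2-cell library. Of these genes Prm1 and Tnp2 were listed at 0 in all groups. In such pools, fewer cells of a type and less RNA per cell cannot be told apart.

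The coverage of single exons limits what an FPKM can say about these genes. Over all transcripts at 5 FPKM or more, internal exons under 100 bases had a coverage of 0 in 96.8% of cases (median of the libraries), and those from 150 to 199 bases in 89.6%. The share was 26.1% from 200 to 299 bases and 1.89% at 2000 bases or more. The 10 members have 68 exons under 200 bases in the transcript with the highest FPKM, and 89.8% of the 1564 values of these exons over the libraries were 0. The FPKM of a member therefore comes from its long exons, which for most members are the first and the last. In the mm9 coordinates of the files Mlxip lies at chr5:123844828-123907940, Mlxipl at chr5:135582783-135613792, Mga at chr2:119722964-119795317, Mnt at chr11:74644426-74659227, Mxi1 at chr19:53384996-53450300 and Txnip at chr3:96361880-96365780, all on the plus strand. Max at chr12:78038256-78063235, Mxd1 at chr6:86597039-86619153 and Arrdc4 at chr7:75881880-75894124 are on the minus strand.

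**Figure D1:**
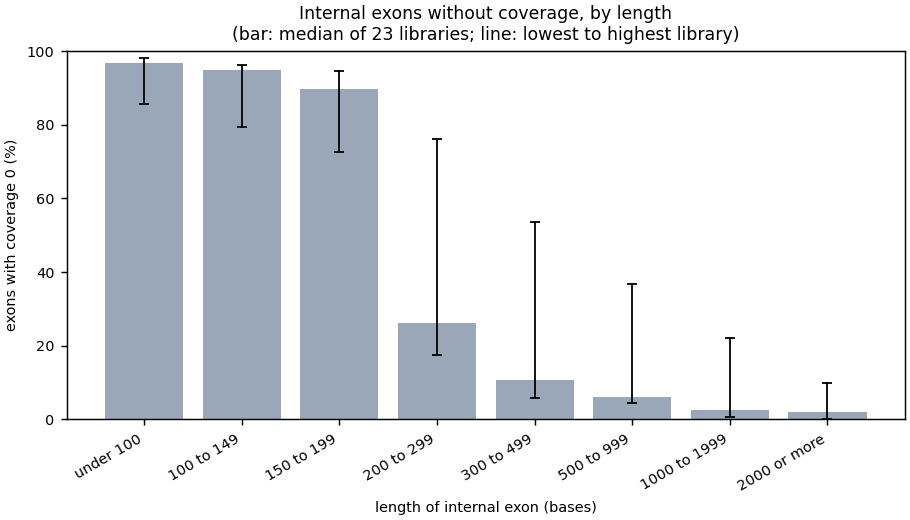
Share of internal exons with a coverage of 0 (y axis, %) by exon length in bases (x axis), over transcripts at 5 FPKM or more. Bars are the median of the 23 libraries and lines run from the lowest to the highest library. The median falls to 26.1% at 200 to 299 bases, against 96.8% under 100 bases.

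The levels of the members, per length, were highest for Max, Mxd1, Txnip and Mlxip and lowest for Mnt and Mxi1. The mean of the 8 group means was 47.4 FPKM for Max, the obligate partner of MYC and MXD proteins, and 45.1 FPKM for Mxd1, a repressor of MYC targets. It was 37.0 FPKM for Txnip, an alpha-arrestin that restrains glucose uptake, and 34.6 FPKM for Mlxip. These 4 genes ranged so widely between groups that their order by the overall mean does not hold within a stage. Mga followed at 16.7, Mlxipl at 10.6, Arrdc4 at 4.57 and Mlx at 3.43 FPKM. Mnt at 2.37 and Mxi1 at 1.55 FPKM closed the order.

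**Figure D2:**
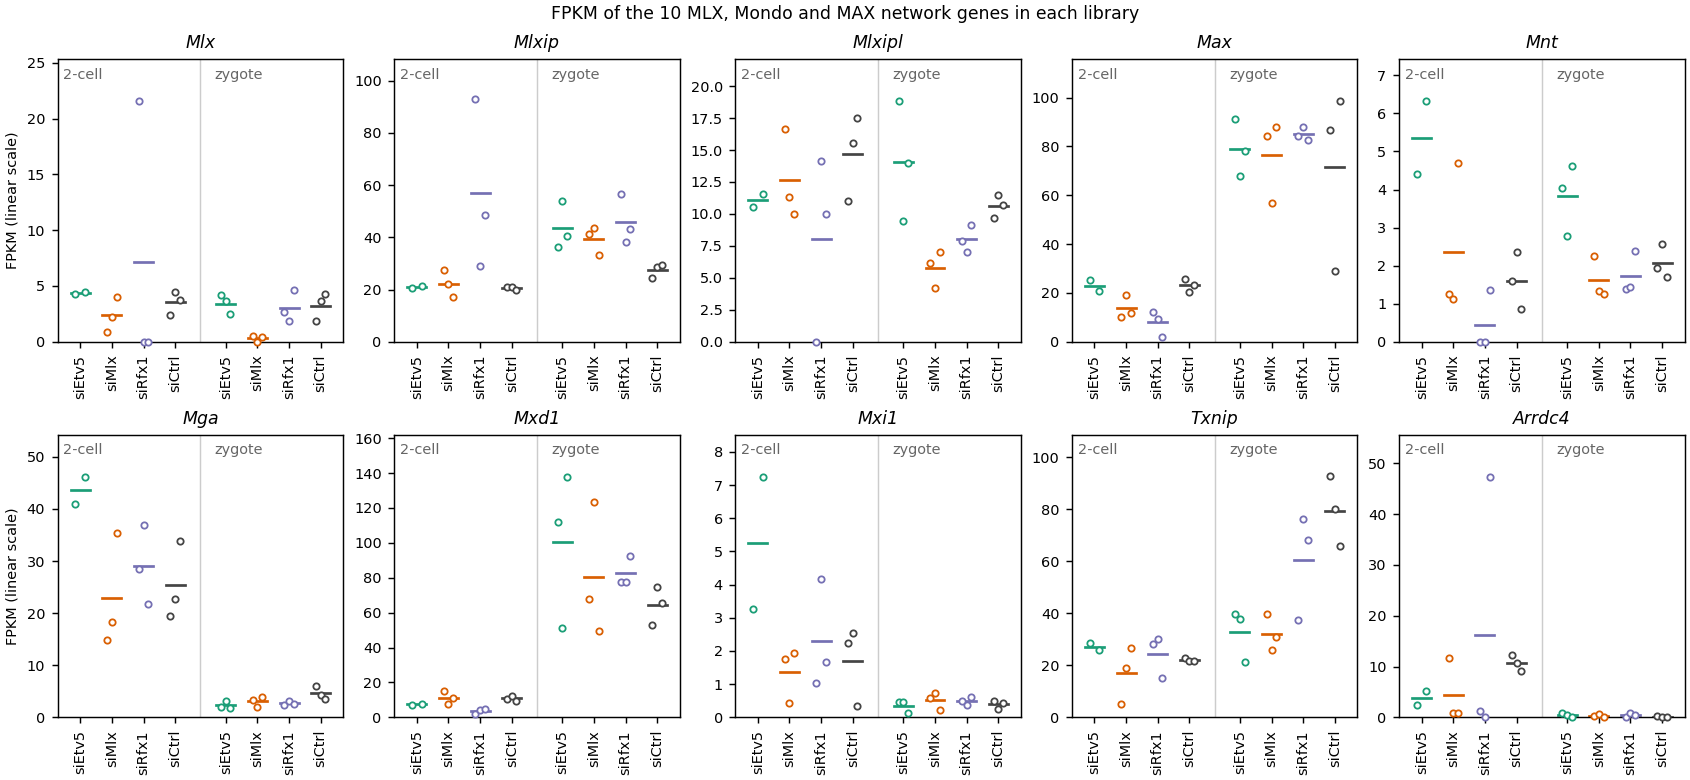
FPKM (y axis, linear, a scale for each gene) of the 10 genes in each library, with 2-cell embryos left and zygotes right in each panel and the 4 siRNA groups along the x axis. Circles are libraries and lines are group means. Max and Mxd1 are high in all zygote groups (means of 64.4 to 100.4 FPKM for Mxd1) and low in all 2-cell groups (3.69 to 11.1 FPKM).

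The first comparison asks whether siMlx lowered its own target. In zygotes Mlx was 0.469, 0 and 0.442 FPKM in the 3 siMlx libraries, against 1.84, 3.63 and 4.25 FPKM in the siCtrl libraries. The groups did not overlap, and the siMlx mean was 9.37% of the siCtrl mean. Mlx had a log2 fold change of -1.52 (SE 0.34) with an adjusted p of 0.053 by limma, and the exact permutation test (two-sided) gave p = 0.1, the smallest that 3 against 3 libraries allow. In 2-cell embryos the siMlx libraries had 0.836, 2.26 and 4.05 FPKM of Mlx, against 2.42, 4.42 and 3.74 FPKM in siCtrl. Here the groups overlapped, and replicate 3 labelled siMlx lay within the siCtrl range. The mean was 67.5% of siCtrl and the log2 fold change was -0.36 (95% interval -1.37 to 0.65, adjusted p = 0.69 by limma). The effect of siMlx on Mlx in 2-cell embryos minus that in zygotes was 1.24 on the log2 scale (SE 0.52, adjusted p = 0.27 by limma), so a difference between the stages was not shown. In the other groups Mlx lay between 1.84 and 4.64 FPKM, except in siRfx1 2-cell embryos, where it was 21.5, 0 and 0 FPKM.

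All FPKM of Mlx was assigned to a single transcript of 8 exons (NM_011550, mm9 chr11:100948604-100953521, plus strand), and 95.6% of its aligned bases lay in the last exon of 1099 bases. That exon shares 67 bases with Psmc3ip on the opposite strand, and the libraries keep no strand. Psmc3ip was 0.385 to 1.51 FPKM in siMlx zygotes and 19.4 to 31.9 FPKM in siMlx 2-cell embryos. In siCtrl it was 0.788 to 3.42 FPKM in zygotes and 24.4 to 39.8 FPKM in 2-cell embryos. In replicates 2 and 3 of siRfx1 2-cell embryos it was 27.0 and 27.9 FPKM, with Mlx at 0. The part of the shared bases in the Mlx values was not tested. Over the 876 bases of the other 7 exons, the siMlx zygotes had a mean coverage of 0 on the FPKM scale and the siCtrl zygotes 1.11 ± 1.01 (SD, n = 3 each, exact permutation p = 0.4). In 2-cell embryos these exons had 0.759 ± 0.930 in siMlx and 0 in siCtrl (n = 3 each, exact p = 0.4). So little coverage lay outside the last exon that the target could not be checked there.

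Txnip lay lower in all siMlx zygote libraries than in siCtrl zygotes, although the difference missed the threshold. Its FPKM was 39.9, 25.9 and 30.8 in siMlx zygotes, against 92.8, 80.1 and 65.9 in siCtrl zygotes. The groups did not overlap, and the siMlx mean was 40.5% of the siCtrl mean. The log2 fold change was -0.94 (SE 0.21) with an adjusted p of 0.052 by limma, just outside the threshold of 0.05. In 2-cell embryos Txnip was 5.26, 19.1 and 26.6 FPKM in siMlx, against 22.9, 21.6 and 21.9 FPKM in siCtrl. The 2-cell groups overlapped, with replicate 1 of siMlx far below the rest, and the log2 fold change was -0.38 (95% interval -1.34 to 0.58, adjusted p = 0.66 by limma). Without that replicate the log2 fold change was 0.13. The difference between the stages was 0.53 (SE 0.52, adjusted p = 0.67 by limma).

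Txnip shares 606 of its 2801 exon bases with Gm15441 on the opposite strand, but none of them lies in its last exon of 1379 bases, which took 74.0% of its aligned bases. In that exon the coverage on the FPKM scale was 47.2, 34.1 and 42.1 in siMlx zygotes, against 139, 116 and 97.8 in siCtrl zygotes (exact permutation p = 0.1, the smallest possible). The groups did not overlap there either, outside the bases shared with Gm15441. The markers of the 2-cell embryo summed to 24.2 to 53.9 FPKM in siMlx and 14.0 to 34.1 FPKM in siCtrl zygotes. By limma 2 of the 4 markers tested were called higher (median log2 fold change 1.29, against 0.03 for all genes), as was 1 of the 8 oocyte and early embryo markers (median 0.69). Of all genes tested 1.27% were called higher. The part of developmental timing in the siMlx values was not tested. In 2-cell embryos the last exon had a mean of 28.5 ± 16.0 in siMlx and 37.7 ± 3.98 in siCtrl (SD, n = 3 each, exact p = 0.4).

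Txnip was also lower in siEtv5 zygotes, which share the siCtrl libraries with the siMlx comparison. It was 39.7, 37.7 and 21.3 FPKM in siEtv5 zygotes and did not overlap siCtrl. The log2 fold change of -1.11 (SE 0.28) had an adjusted p of 0.32 by limma. In siRfx1 zygotes Txnip was 37.3, 76.2 and 68.3 FPKM, which overlapped siCtrl (log2 fold change -0.27, SE 0.23, adjusted p = 0.60 by limma). In 2-cell embryos it was 28.6 and 25.8 FPKM in siEtv5 (log2 fold change 0.29, SE 0.22, adjusted p = 0.57) and 28.2, 30.3 and 14.9 FPKM in siRfx1 (0.76, SE 0.46, adjusted p = 0.36, both by limma). The siEtv5 effect on Txnip in 2-cell embryos minus that in zygotes was 1.38 (SE 0.36, adjusted p = 0.11 by limma).

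Arrdc4, the alpha-arrestin next of kin to Txnip among the Mondo targets, could be compared only in 2-cell embryos. In zygotes it was at most 0.899 FPKM in any library and was listed at 0 in 1 library of each group, under the filter of a mean of 1 FPKM. In siCtrl 2-cell embryos it was 12.3, 10.6 and 9.19 FPKM. It was 2.51 and 5.27 FPKM in siEtv5 2-cell embryos, below all siCtrl libraries (log2 fold change -1.30, SE 0.38, adjusted p = 0.20 by limma). In siMlx it was 11.8, 0.756 and 0.925 FPKM (log2 fold change -1.47, SE 0.81, adjusted p = 0.36 by limma). The 11.8 FPKM lay within the siCtrl range but was assigned to a shorter transcript than in siCtrl. Without replicate 1 of siMlx the log2 fold change was -2.60 with an adjusted p of 0.038 by limma. That fit called 68 of 10796 genes, against 1 of 10586 with all libraries. In siRfx1 the values were 1.24, 0 and 47.3 FPKM.

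Most coverage of Arrdc4 in siCtrl 2-cell embryos lay in the first exon of 470 bases, with 85.3, 54.98 and 46.5 on the FPKM scale, against 0.585, 3.16 and 2.60 in the last exon of 2540 bases. In siMlx 2-cell embryos the first exon had 14.8, 0 and 6.10, below all siCtrl libraries. All FPKM of siMlx replicate 1 was assigned to a short transcript of 5 exons and 1097 bases (NM_025549). It has the same first exon as the transcript of 3903 bases used in siCtrl, and had no FPKM in the other 22 libraries. The 11.8 FPKM came from 5217 aligned bases in a library of 404 Mb. Arrdc4 had 32328 to 34885 aligned bases in the siCtrl 2-cell libraries of 727 to 967 Mb. The FPKM of this replicate and of siCtrl are thus not on the same length. In replicate 3 of siRfx1 the last exon had 69.0 and the first 20.3.

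Mlxip, which encodes MondoA, was higher in zygotes of all KD groups than in siCtrl zygotes. It was 36.2, 53.9 and 40.7 FPKM in siEtv5, 41.4, 43.6 and 33.1 FPKM in siMlx and 56.6, 38.2 and 43.2 FPKM in siRfx1 zygotes, against 24.5, 28.8 and 29.5 FPKM in siCtrl zygotes. No KD library overlapped the siCtrl libraries, which the 3 comparisons share. The log2 fold changes were 0.80 (SE 0.27, adjusted p = 0.36) in siEtv5, 0.84 (SE 0.21, adjusted p = 0.067) in siMlx and 0.87 (SE 0.22, adjusted p = 0.23) in siRfx1, by limma. None passed the test.

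The exons of Mlxip moved in opposite directions. The first exon of 524 bases averaged 283 in siEtv5, 239 in siMlx and 292 in siRfx1 zygotes on the FPKM scale, against 115 in siCtrl zygotes. The last exon of 4540 bases averaged 6.70 in siEtv5, 3.25 in siMlx and 6.46 in siRfx1 zygotes, against 13.3 in siCtrl zygotes. In both exons no KD library overlapped the siCtrl libraries. Exon 9 of 655 bases averaged 212 in siEtv5, 225 in siMlx and 233 in siRfx1 zygotes, against 122 in siCtrl, again without overlap. The higher FPKM of Mlxip in KD zygotes thus joined more coverage in exons 1 and 9 with less in the last exon. The part of RNA quality or of the library amplification in this pattern was not tested.

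In 2-cell embryos Mlxip was 92.9, 29.0 and 48.6 FPKM in siRfx1, above 20.8, 21.0 and 19.7 FPKM in siCtrl. The log2 fold change was 1.95 (SE 0.50, adjusted p = 0.076 by limma). Here the last exon was the higher one, with 146, 34.9 and 74.6 in siRfx1 against 15.5, 18.8 and 15.6 in siCtrl, while exon 9 had 14.5, 36.6 and 13.2 in siRfx1 against 69.7, 68.2 and 63.7 in siCtrl. The siRfx1 libraries are the shallow ones, and the part of depth in this result was not tested. Mlxip was 20.5 and 21.3 FPKM in siEtv5 and 27.6, 22.1 and 17.1 FPKM in siMlx 2-cell embryos, both overlapping siCtrl.

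Mlxipl, which encodes ChREBP, was 6.18, 4.23 and 6.999 FPKM in siMlx zygotes, against 9.68, 11.5 and 10.7 FPKM in siCtrl zygotes. The groups did not overlap, and the log2 fold change was -0.48 (SE 0.22, adjusted p = 0.21 by limma). The last exon of 681 bases had 8.84, 3.87 and 7.68 in siMlx against 28.6, 29.0 and 24.0 in siCtrl on the FPKM scale, while exon 9 had 20.0, 15.2 and 24.7 against 13.1, 19.4 and 22.5. The lower value thus lay at the 3′ end, and exon 9 overlapped. Mlxipl was also below all siCtrl zygotes in siRfx1 zygotes, at 7.86, 7.01 and 9.17 FPKM (log2 fold change -0.22, SE 0.19, adjusted p = 0.60 by limma). The last exon there averaged 10.5, against 27.2 in siCtrl zygotes, without overlap. In siEtv5 zygotes Mlxipl was 18.8, 9.45 and 14.0 FPKM, which overlapped siCtrl.

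**Figure D3:**
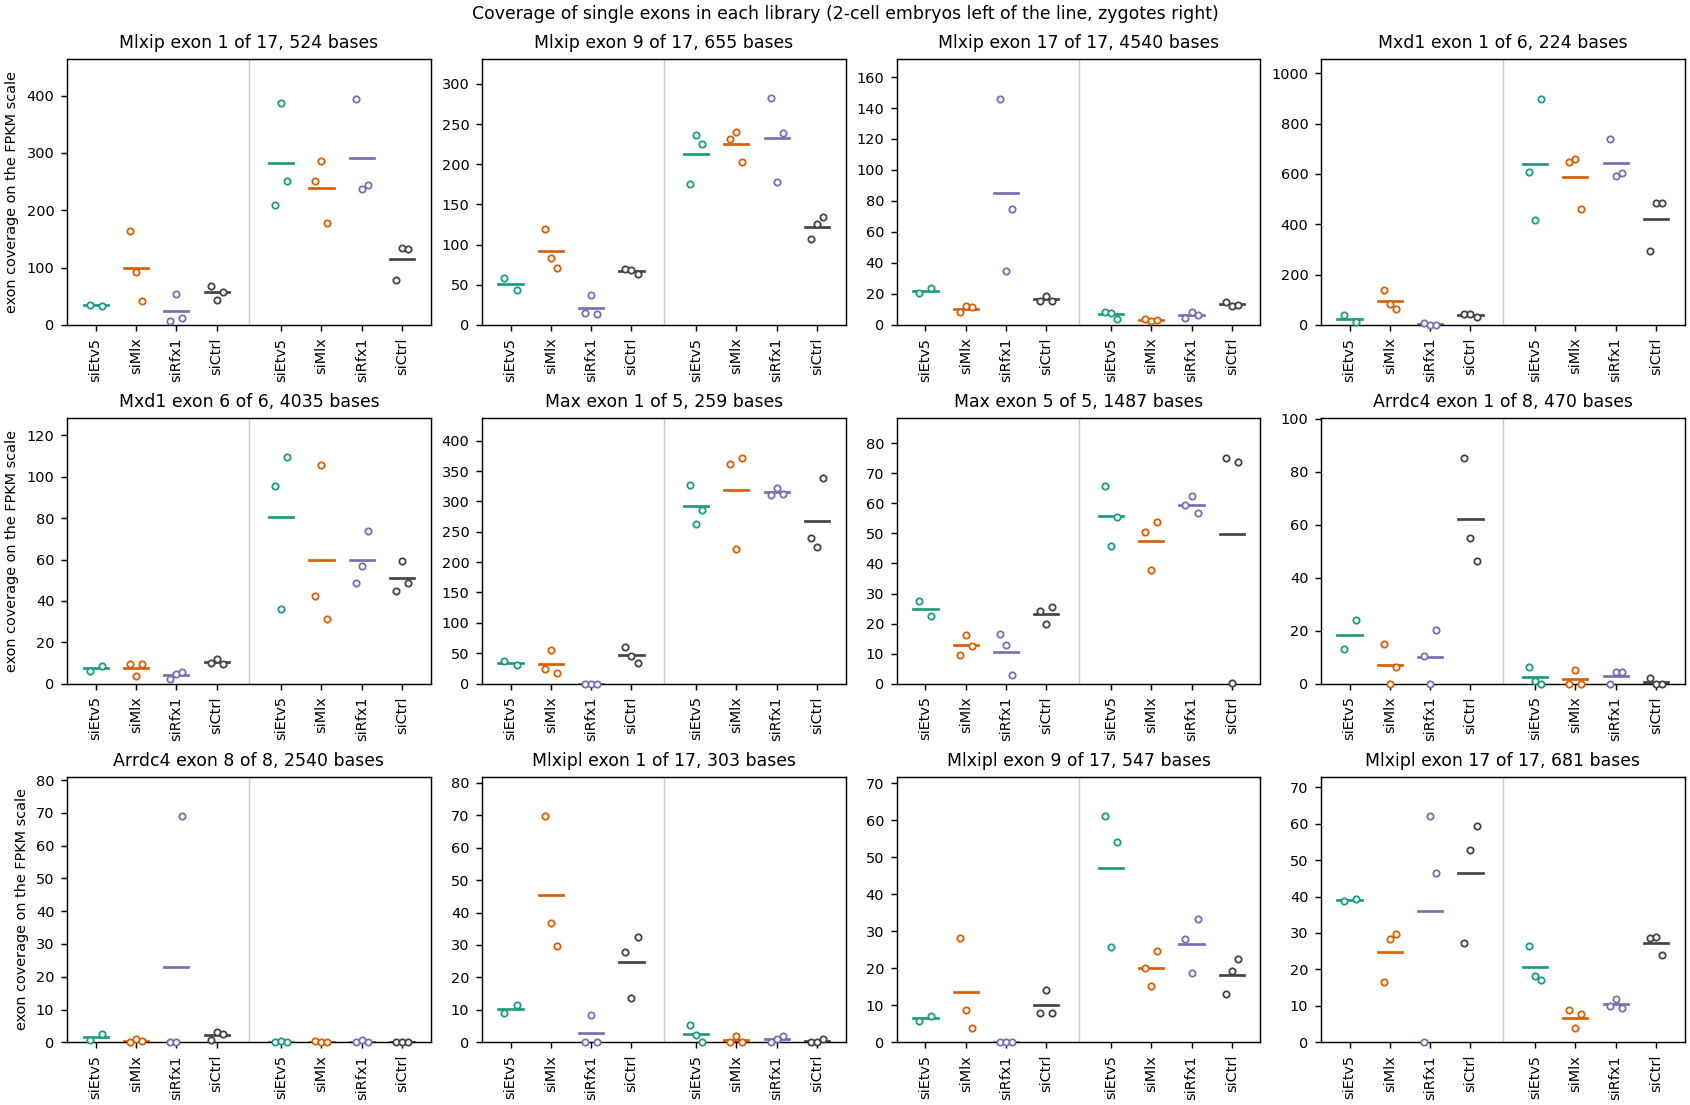
Coverage of single exons on the FPKM scale (y axis, linear from 0) of Mlxip, Mxd1, Max, Arrdc4 and Mlxipl in each library, with 2-cell embryos left of the line and zygotes right of it. Circles are libraries and lines are group means. For Mlxip the KD zygotes lie above siCtrl zygotes in exons 1 and 9 and below them in exon 17, where siRfx1 2-cell embryos reach 146.

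In siEtv5 the MAX partners Mnt and Mga lay apart from siCtrl at both stages. Mnt was 4.05, 2.78 and 4.62 FPKM in siEtv5 zygotes, against 1.93, 2.56 and 1.70 FPKM in siCtrl zygotes, and 4.40 and 6.32 FPKM in siEtv5 2-cell embryos, against 1.59, 2.36 and 0.858 FPKM in siCtrl 2-cell embryos. The groups did not overlap at either stage, but neither difference passed (log2 fold change 0.77, SE 0.30, adjusted p = 0.39 in zygotes and 1.32, SE 0.47, adjusted p = 0.25 in 2-cell embryos by limma). Mga was 1.89, 3.06 and 1.87 FPKM in siEtv5 zygotes, against 6.03, 4.34 and 3.55 FPKM in siCtrl zygotes (log2 fold change -0.64, SE 0.29, adjusted p = 0.40 by limma). In 2-cell embryos it lay on the other side of siCtrl, at 40.9 and 46.2 FPKM in siEtv5 against 19.5, 22.6 and 33.9 FPKM in siCtrl (0.80, SE 0.28, adjusted p = 0.24 by limma). The difference between these effects was 1.43 (SE 0.43, adjusted p = 0.14 by limma). The lower Mga in zygotes was not particular to siEtv5. In siRfx1 zygotes Mga was 2.42, 3.12 and 2.59 FPKM, also below all siCtrl zygotes (log2 fold change -0.45, SE 0.22, adjusted p = 0.38 by limma). In siMlx zygotes it overlapped siCtrl. Max lay below siCtrl in 2-cell embryos, at 10.1, 19.1 and 11.7 FPKM in siMlx and 12.2, 9.46 and 2.10 FPKM in siRfx1, against 25.8, 20.4 and 23.3 FPKM in siCtrl, which both comparisons share. The log2 fold changes of Max were -0.52 (SE 0.31, adjusted p = 0.39) in siMlx and -1.04 (SE 0.68, adjusted p = 0.40) in siRfx1 by limma. The siRfx1 values of Max rested on 4255, 2258 and 517 aligned bases in the shallow libraries, and the part of depth was not tested. The summed oocyte and 2-cell markers were higher in both siEtv5 than in all siCtrl 2-cell libraries, and their part in the siEtv5 values of Mnt, Mga and Arrdc4 was not tested.

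Across the 6 KD comparisons no member passed the test. The share of all tested genes called by limma in each, at an adjusted p under 0.05, was 0% in siEtv5 zygotes. It was 2.61% in siMlx zygotes (1.27% higher, 1.34% lower) and 0.0555% in siRfx1 zygotes (0.0444% higher, 0.0111% lower). In 2-cell embryos it was 0.251% in siEtv5 (0.0985% higher, 0.152% lower), 0.00945% in siMlx, all lower, and 3.6% in siRfx1 (2.15% higher, 1.45% lower). At an unadjusted p under 0.05 there were 3 of 8 members tested in siEtv5 zygotes (Mlxip, Mnt and Txnip, against 12.4% of all genes), 3 of 8 in siMlx zygotes (Mlx, Mlxip and Txnip, against 24.7%) and 2 of 8 in siRfx1 zygotes (Mlxip and Mxd1, against 14.6%). In 2-cell embryos there were 3 of 10 in siEtv5 (Mnt, Mga and Arrdc4, against 15.5% of all genes), none of 10 in siMlx (18.7%) and 1 of 9 in siRfx1 (Mlxip, against 23.2%). Fitting estimated fragments with limma voom called Mlxip (adjusted p = 0.042) and Txnip (adjusted p = 0.039) in siMlx zygotes and Mlxip in siRfx1 2-cell embryos (adjusted p = 0.020). Voom called 459 of 8932 genes in siMlx zygotes and 453 of 10284 in siRfx1 2-cell embryos. It called no member in the other 4 comparisons. In zygotes Mxi1 and Arrdc4 stayed below the filter, and in siRfx1 2-cell embryos Mnt did.

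**Figure D4:**
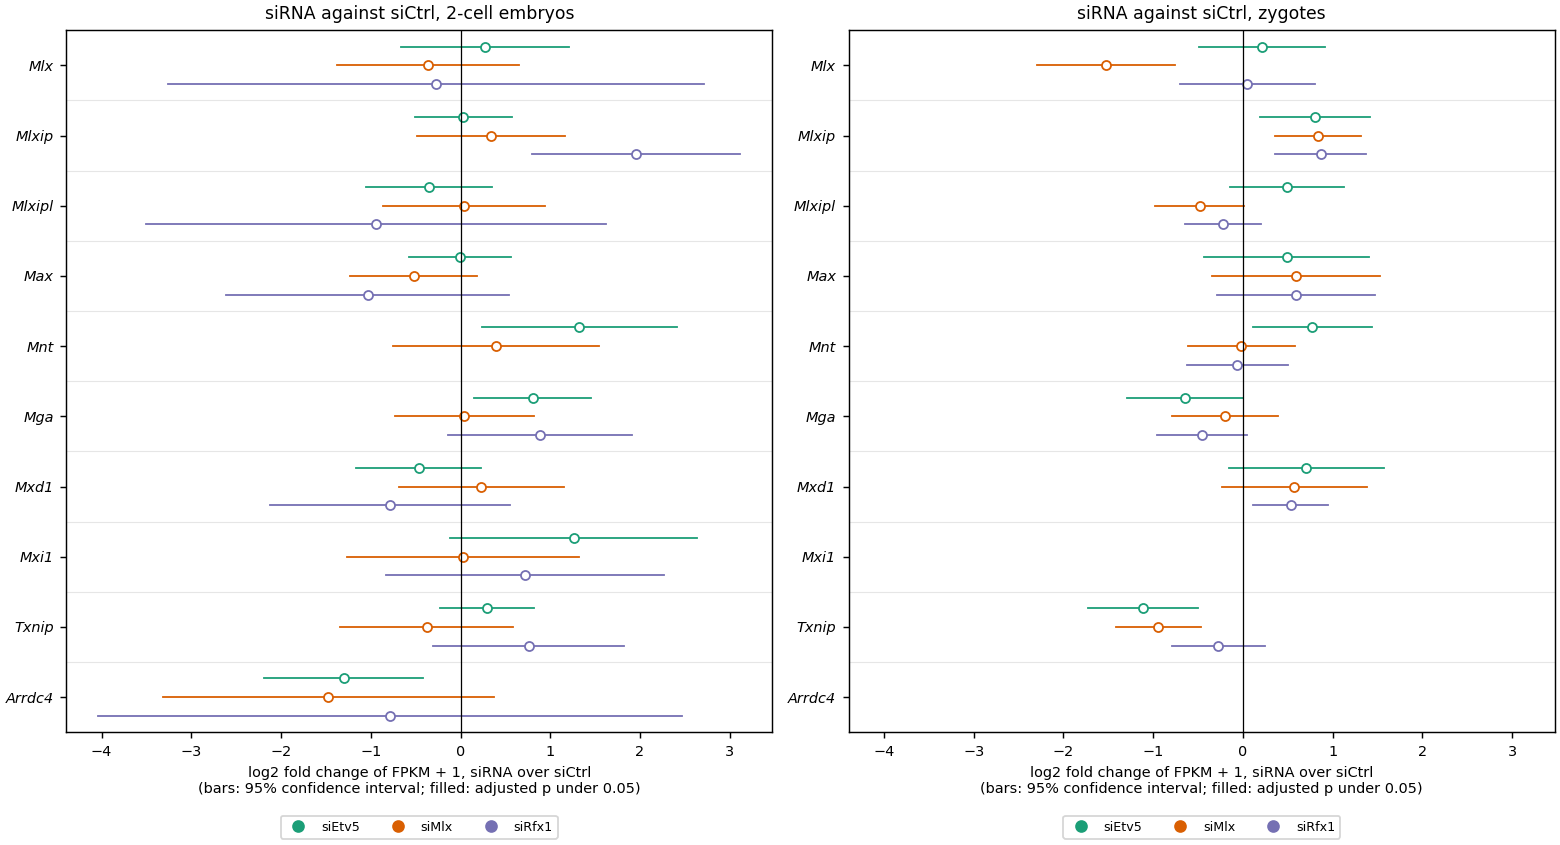
Log2 fold change of FPKM + 1 (x axis, siRNA over siCtrl) of each gene (y axis) in 2-cell embryos (left) and zygotes (right). Circles are estimates from limma, bars are 95% intervals, and filled circles would mark an adjusted p under 0.05. No circle is filled, and Mlx in siMlx zygotes lies at -1.52.

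The development from zygotes to 2-cell embryos moved most members. Between siCtrl 2-cell embryos and zygotes 6 of 9 members tested changed, 2 upwards and 4 downwards, where 71.7% of all 11123 genes tested did (40.6% higher and 31.1% lower). The share of members was near that of all genes. Over all genes the median log2 difference was 0.27 after rescaling and 0.52 as deposited, and the members' values are to be read against it. For the members the median was -0.43.

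Mga, a MAX partner with a second DNA-binding domain of the T-box kind and the scaffold of the PRC1.6 repressor complex, rose in all 4 siRNA groups. It was 19.5, 22.6 and 33.9 FPKM in siCtrl 2-cell embryos, against 6.03, 4.34 and 3.55 FPKM in siCtrl zygotes (log2 fold change 1.98, SE 0.28, adjusted p = 3.8e-04 by limma). In siEtv5 it was 40.9 and 46.2 FPKM in 2-cell embryos, against 1.89, 3.06 and 1.87 FPKM in zygotes, a log2 fold change of 3.55 (SE 0.31). The groups were fully apart in each siRNA group. Its log2 fold change was 2.15 (SE 0.35) in siMlx and 2.79 (SE 0.34) in siRfx1. The last exon of 5890 bases had 22.8, 17.1 and 19.4 on the FPKM scale in siCtrl 2-cell embryos, against 4.73, 4.37 and 3.11 in siCtrl zygotes, without overlap. Exon 17 of 1469 bases was uneven, with 0.141, 73.2 and 146 in siCtrl 2-cell embryos against 13.8, 10.1 and 9.96 in siCtrl zygotes. In siRfx1 2-cell embryos exon 9 of 343 bases had 517, 102.5 and 720, against 0.548, 20.2 and 2.71 in the last exon, so that the level of Mga in this group rested on other exons.

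Mxd1, which encodes the repressor MAD1, fell in all 4 groups. It was 10.6, 12.5 and 9.58 FPKM in siCtrl 2-cell embryos, against 53.0, 74.7 and 65.5 FPKM in siCtrl zygotes (log2 fold change -2.70, SE 0.21, adjusted p = 2.0e-05 by limma). Its log2 fold change was -3.71 (SE 0.47) in siEtv5, -3.05 (SE 0.46) in siMlx and -4.42 (SE 0.36) in siRfx1. In no group did the stages overlap. The first exon of 224 bases averaged 38.9 in siCtrl 2-cell embryos against 421 in siCtrl zygotes on the FPKM scale, and the last exon 10.4 against 50.9. At both ends of the transcript the stages were apart.

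Max fell likewise. It was 25.8, 20.4 and 23.3 FPKM in siCtrl 2-cell embryos, against 86.7, 29.1 and 98.6 FPKM in siCtrl zygotes (log2 fold change -1.66, SE 0.42, adjusted p = 0.0078 by limma). Replicate 2 of the siCtrl zygotes stood apart: its last exon had 0.0477 on the FPKM scale, against 75.3 and 73.7 in the others, while its first exon had 225, against 239 and 338. Its log2 fold change was -1.998 (SE 0.28) in siEtv5, -2.80 (SE 0.33) in siMlx and -3.73 (SE 0.59) in siRfx1. The first exon was listed at 0 in all siRfx1 2-cell libraries, against a mean of 315 in siRfx1 zygotes.

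Mlxip fell by less. It was 20.8, 21.0 and 19.7 FPKM in siCtrl 2-cell embryos, against 24.5, 28.8 and 29.5 FPKM in siCtrl zygotes (log2 fold change -0.65, SE 0.18, adjusted p = 0.013 by limma). It also fell in siEtv5 (-1.27, SE 0.32, adjusted p = 0.013) and siMlx (-1.18, SE 0.36, adjusted p = 0.018), and without single libraries of these groups the adjusted p passed 0.05, up to 0.099 in siEtv5 and 0.066 in siMlx. In siRfx1 it averaged 56.8 FPKM in 2-cell embryos and 46.0 FPKM in zygotes, the stages overlapped, and the log2 fold change was -0.07 (SE 0.51, adjusted p = 0.92 by limma). Of its 3 exons of 200 bases or more, the first and exon 9 were lower in siCtrl 2-cell embryos and the last was higher. The first exon averaged 56.6 in 2-cell embryos against 115 in zygotes on the FPKM scale. Exon 9 averaged 67.2 against 122, and the last exon 16.6 against 13.3. In each siRNA group the first exon was lower and the last exon higher in all 2-cell than in all zygote libraries. The last exon of 4540 bases averaged 22.1 in 2-cell embryos against 6.70 in zygotes in siEtv5. It averaged 10.5 against 3.25 in siMlx and 85.2 against 6.46 in siRfx1. The falls of Mlxip thus did not extend to its last exon.

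Txnip fell in siCtrl, to 22.9, 21.6 and 21.9 FPKM in 2-cell embryos, against 92.8, 80.1 and 65.9 FPKM in zygotes (log2 fold change -2.04, SE 0.18, adjusted p = 3.4e-05 by limma). It fell in siRfx1 (-1.50, SE 0.42, adjusted p = 0.025) and in siMlx (-1.49, SE 0.45, adjusted p = 0.017), although the siMlx stages overlapped. In siEtv5 the log2 fold change was -0.48 (SE 0.33, adjusted p = 0.25 by limma). At both ends of the transcript siCtrl 2-cell embryos were lower, with 11.8 in 2-cell embryos against 95.1 in zygotes in the first exon and 37.7 against 118 in the last. In siRfx1, leaving out replicate 2 or 3 of the zygotes gave an adjusted p of 0.098 and 0.092.

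Arrdc4 went the other way. Its log2 fold change was 3.26 in siCtrl (SE 0.26, adjusted p = 1.9e-05 by limma), with 12.3, 10.6 and 9.19 FPKM in 2-cell embryos against 0.235, 0 and 0.102 FPKM in zygotes. In siEtv5 it was 1.66 (SE 0.37, adjusted p = 0.0087), but 1.42 with an adjusted p of 0.26 when all 8 groups were fitted together. In siMlx it was 1.32 (SE 0.77, adjusted p = 0.16 by limma), with 2-cell replicate 1 valued on the short transcript. The fold on this scale understates a change against so low a zygote level.

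Mlx itself did not pass between the stages in siCtrl, with 2.42, 4.42 and 3.74 FPKM in 2-cell embryos against 1.84, 3.63 and 4.25 FPKM in zygotes (log2 fold change -0.08, 95% interval -0.86 to 0.70, adjusted p = 0.84 by limma). In siMlx it was higher in 2-cell embryos (1.09, SE 0.38, adjusted p = 0.031 by limma), with all 2-cell libraries above all zygote libraries. The opposite-strand Psmc3ip, which shares bases with Mlx, was also higher in siMlx 2-cell embryos, and its part in this difference was not tested. Leaving out any siMlx zygote library gave an adjusted p between 0.058 and 0.11, and the fit over all 8 groups gave 0.24.

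Mlxipl had a similar FPKM at both stages but from different exons. It was 11.02, 15.6 and 17.5 FPKM in siCtrl 2-cell embryos, against 9.68, 11.5 and 10.7 FPKM in siCtrl zygotes (log2 fold change 0.18, SE 0.24, adjusted p = 0.52 by limma). Its first exon of 303 bases had 27.9, 13.6 and 32.4 on the FPKM scale in siCtrl 2-cell embryos, against 0, 0 and 1.08 in zygotes. Exon 6 of 202 bases averaged 0 in 2-cell embryos against 11.6 in zygotes. Whether the start of the transcript differs between the stages was not tested.

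Mxi1, another MXD repressor, was at most 0.742 FPKM in any zygote library. In 2-cell embryos it was 3.25 and 7.25 FPKM in siEtv5, 1.77, 0.440 and 1.93 FPKM in siMlx, 1.05, 4.18 and 1.68 FPKM in siRfx1 and 2.23, 2.54 and 0.346 FPKM in siCtrl. It rose only in siEtv5 among the groups where it could be tested, siEtv5 and siRfx1 (log2 fold change 1.995, SE 0.35, adjusted p = 0.0031 by limma). Whether siEtv5 and siRfx1 differ here was not tested. Mnt, a MAX and MLX partner that represses MYC targets, was 1.59, 2.36 and 0.858 FPKM in siCtrl 2-cell embryos, against 1.93, 2.56 and 1.70 FPKM in siCtrl zygotes, and did not pass in any stage comparison.

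In the other siRNA groups 6 of 10 members tested passed between the stages in siEtv5, 3 higher and 3 lower, where 63.3% of all genes passed (39.2% higher, 24.1% lower). In siMlx 6 of 9 passed, 2 higher and 4 lower, against 67.5% of all genes (36.7% higher, 30.8% lower). In siRfx1 4 of 10 passed, 1 higher and 3 lower, against 48.7% (18.8% higher, 29.8% lower). Max and Mxd1 fell and Mga rose in all 4 groups. These 3 kept their calls under every alternative run for the stage comparisons.

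**Figure D5:**
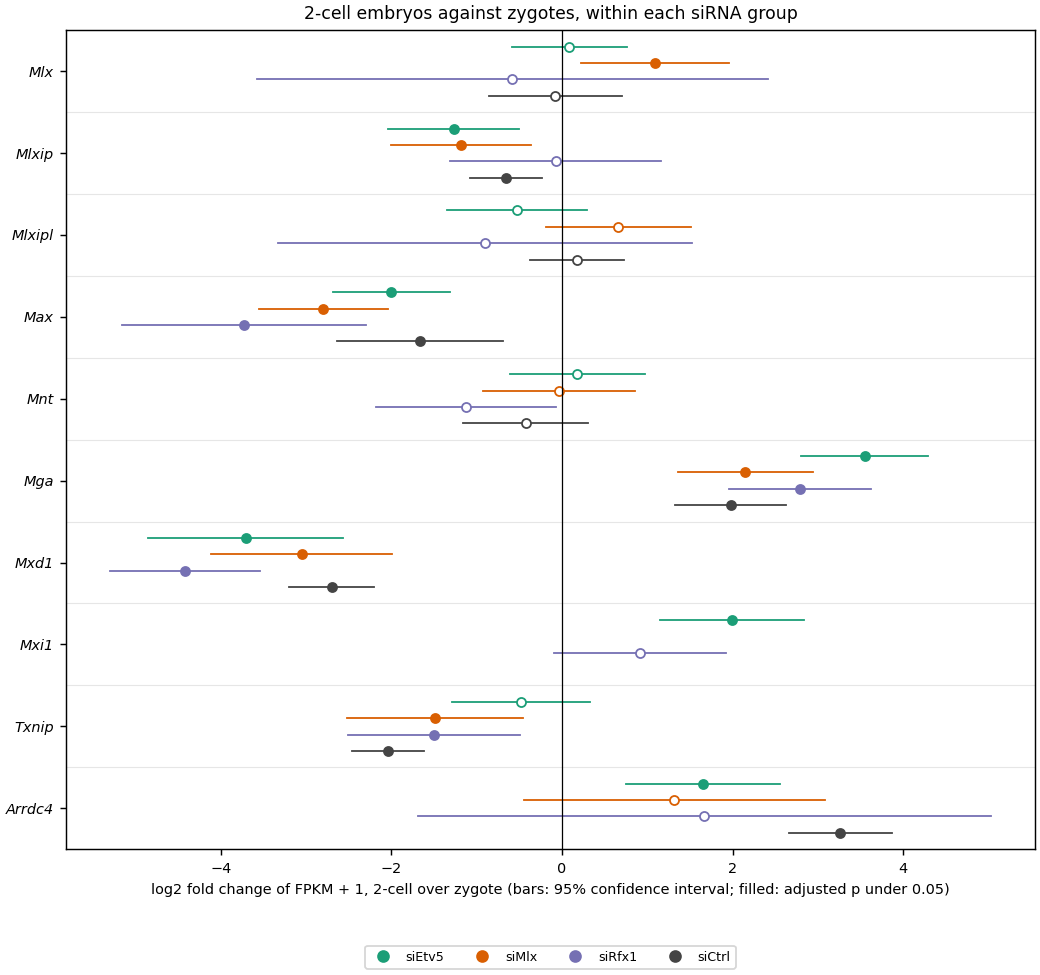
Log2 fold change of FPKM + 1 (x axis, 2-cell over zygote) of each gene (y axis) within siEtv5, siMlx, siRfx1 and siCtrl. Circles are estimates from limma, bars are 95% intervals, and filled circles mark an adjusted p under 0.05. Mga lies between 1.98 and 3.55 and Mxd1 between -4.42 and -2.70.

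Of the tests of whether an siRNA effect differed between the stages, a single one passed. The siRfx1 effect on Mxd1 in 2-cell embryos minus that in zygotes was -1.53 on the log2 scale (SE 0.43, adjusted p = 0.048 by limma), where 9.98% of all genes passed (3.02% higher, 6.96% lower). Mxd1 was 2.13, 3.97 and 4.98 FPKM in siRfx1 2-cell embryos, against 10.6, 12.5 and 9.58 FPKM in siCtrl. In zygotes it was 77.8, 77.8 and 92.7 FPKM in siRfx1, against 53.0, 74.7 and 65.5 FPKM in siCtrl. The siRfx1 libraries lay below siCtrl in 2-cell embryos and above siCtrl in zygotes, although neither comparison passed within its stage (log2 fold change -0.78, SE 0.58, adjusted p = 0.46 and 0.53, SE 0.18, adjusted p = 0.27 by limma). The median effect of all genes in this test was -0.40, and leaving out any siCtrl or any zygote siRfx1 library ended the call, with adjusted p between 0.065 and 0.12. No member passed for siEtv5 (0.315% of all genes, 0.0991% higher and 0.216% lower, with 5 members and 18.1% of all genes at an unadjusted p under 0.05) or siMlx (1.17%, 0.194% higher and 0.98% lower, with 1 member and 16.1%), and limma voom called none for either.

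The partners and targets of the network were counted over whole lists. In siCtrl 2-cell embryos against zygotes 71.7% of all genes changed (40.6% higher, 31.1% lower), and no list was tested against these shares. All 4 tested members of the other MYC and MXD partners changed, 3 higher and 1 lower. Myc averaged 22.3 FPKM in 2-cell embryos and 0.101 in zygotes (log2 fold change 4.17), Mycn 10.1 FPKM and listed at 0, and Mxd4, an MXD repressor, 18.6 and 91.4 FPKM (-2.45). The 14 tested PRC1.6 partners of Mga had 6 higher and 3 lower, led by L3mbtl2 (3.46), Cbx3 (5.22) and Hdac1 (4.70). Their median was 0.30, against 0.27 for all genes.

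Among 16 tested glucose-responsive genes known as targets of the Mondo factors, 9 were higher and 3 lower in siCtrl 2-cell embryos. Over all genes 40.6% were higher and 31.1% lower, which also applies to the lists that follow. The median log2 fold change of the Mondo targets was 1.29, against 0.27 for all genes. The fatty acid elongase Elovl6 averaged 44.8 FPKM in 2-cell embryos and 0.262 in zygotes, and the desaturase Scd1 averaged 36.5 and 0.392 FPKM. The lipase Pnpla3 was lower, at 3.21 FPKM in 2-cell embryos and 72.3 FPKM in zygotes. Of 4 other alpha-arrestins Arrdc3 (2.89) and Arrdc1 (0.73) were higher. Of the 11 genes of the SIN3 corepressor, which MXD and MNT recruit, 3 were higher and 6 lower (median -1.26), with Rbbp7 (-2.17) and Sap30 (-2.21) lower and Ing1 (1.89) higher. Of 10 germline genes that MGA and PRC1.6 repress in mouse embryonic stem cells, 6 were higher, among them Tex101 (2.71) and Ddx4 (1.70), and 1 was lower, Dazl, at 2.25 FPKM in 2-cell embryos and 157 FPKM in zygotes.

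In the KD comparisons these lists held few calls. In siMlx zygotes, where 1.27% of all genes were called higher and 1.34% lower, none of 5 tested Mondo targets and none of 4 other alpha-arrestins passed. Of 11 SIN3 genes 1 was higher, Brms1l (log2 fold change 0.94, adjusted p = 0.043 by limma). Of 8 tested germline genes 1 was higher, Mael (1.02, adjusted p = 0.049 by limma). The median of the Mondo targets was -0.44 over 5 tested genes in siMlx zygotes, against 0.03 for all genes. It was -0.38 over 16 tested genes in siMlx 2-cell embryos, against -0.05 for all genes. In siMlx 2-cell embryos the medians of the other lists ran from -0.66 for the germline genes to 0.53 for the SIN3 genes, with -0.36 for the other alpha-arrestins. In siMlx zygotes they ran from 0.05 for the germline genes to 0.96 for the 1 tested MYC or MXD partner. These medians were not tested. In siRfx1 2-cell embryos, where 2.15% of all genes were called higher, 2 of 14 PRC1.6 partners were higher, Ehmt2 (2.52, adjusted p = 0.047) and Rnf2 (1.89, adjusted p = 0.035), by limma. No gene of these 6 lists passed in the other 4 KD comparisons by limma.

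The genes most like the 3 highest members were found over all 6962 genes at a mean of 5 FPKM or more. Over the 23 libraries Max was closest to Macrod2 (Pearson r = 0.958), Mxd1 to Slc25a48 (0.990) and Txnip to Bpgm (0.945). Over the 8 group means the closest were Tubg2 for Max (0.997), Kcnk13 for Mxd1 (0.998) and Tmco3 for Txnip (0.994). These values are descriptions: the points differ in stage and depth, and libraries of a group share their treatment. Among the members themselves r over the 23 libraries ran between -0.971 for Mga with Mxd1 and 0.884 for Max with Mxd1.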

How the data were processed

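RNA was reverse transcribed with oligo-dT priming, amplified as cDNA and made into libraries without strand information. The authors aligned reads to mm9 with STAR (2.5.2b in the submitters' processing notes) and ran StringTie (1.3.3b in the file headers, 1.3.4 in the notes) on RefSeq transcripts only. The deposited values are FPKM and coverage for each transcript and exon, and other deposited attributes were not used. The authors' own tests used read counts, which were not analysed here.

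FPKM was summed per gene, the 976 transcripts without a gene name being left out. Since the quotient of coverage and FPKM is the same for all transcripts of a library, it was used to derive aligned bases and to put exon coverage on the FPKM scale. There were 13 comparisons (6 KD, 4 stage and 3 differences of effects). In each, libraries were brought to a common scale with median ratios, taken over the genes that reached 1 FPKM throughout. Genes averaging 1 FPKM or more entered limma 3.58.1 (R 4.3.3, with a mean-variance trend) on the scale log2(FPKM + 1), p-values were adjusted over all of them by Benjamini-Hochberg, and an adjusted p under 0.05 was a call. Fold changes on this scale understate those of low genes. The fit was tested on simulated data. Single values were compared by exact permutation tests (Python 3.11.15, scipy 1.17.1). The replicate numbers were not used to pair libraries in the main test: deviations of same-numbered libraries correlated between -0.11 and 0.26, and in 0 of 10 comparisons did every pair pass 0.1. So few pairs cannot tell whether same-numbered libraries were collected together. The members, lists and tests were chosen with earlier results of these data known. All 10 members are named, and from each list up to 3 genes with the lowest adjusted p among those called. Alternatives were another pseudocount (0.1), filter (none or 5 FPKM) or scaling, a replicate block, limma voom on fragments estimated at 100 aligned bases each, wider fits, a fold above 2 and each library left out.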

Additional observations from a re-analysis of the deposited data

Results flagged for a closer look

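One result differed between the stages by a test of the difference itself: the siRfx1 effect on Mxd1 in 2-cell embryos minus that in zygotes was -1.53 on the log2 scale (SE 0.43, adjusted p = 0.048 by limma). It was 1 of 10 members tested, near the 9.98% of all genes that passed, and the median effect of all genes was -0.40. The call held in 6 of 18 alternatives, with adjusted p between 0.013 and 0.12 by limma. The siRfx1 2-cell libraries held 119 to 174 Mb of aligned sequence, against 404 to 991 Mb in the other groups, and the part of depth in this difference was not tested.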

How the results depend on the processing

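No member was called in siMlx against siCtrl zygotes, but 2 were with the filter at 5 FPKM (Mlxip and Txnip), 2 with FPKM as deposited (Mlx and Txnip), 2 with voom (Mlxip and Txnip) and 1 with all 4 groups of the stage in a single fit (Mlx). In that order these settings called 371 of 5456, 1042 of 8959, 459 of 8932 and 132 of 8932 genes. The main test called 233 of 8932. Txnip kept its direction in all 13 alternatives of the siMlx zygote comparison, with adjusted p between 0.016 and 0.18. In siRfx1 against siCtrl 2-cell embryos voom and the single fit over the stage each called 1 member, Mlxip, whose adjusted p over the 13 alternatives was 0.020 to 0.25. These 2 settings called 453 of 10284 and 1258 of 10380 genes, against 370 of 10284 in the main test. The siRfx1 difference between the stages had 0 members called with a pseudocount of 0.1, with voom and with the replicate block, where Mxd1 had an adjusted p of 0.071. With the replicate block Txnip between siRfx1 stages had an adjusted p of 0.061, and the block changed no other member call. With FPKM as deposited, Mlxip between the siCtrl stages (adjusted p = 0.074) and, between the siMlx stages, Mlxip (0.060) and Txnip (0.087) lost their calls, as did Txnip between the siRfx1 stages (0.056). Mlxip between the siCtrl stages also lost its call in the fit over all 8 groups (0.061). Mlx between the siCtrl stages, not called, turned to 0.12 with FPKM as deposited. Mlxip between the siRfx1 stages, not called at -0.07, turned to 0.16 with FPKM as deposited, 0.068 with voom and 0.060 in the fit over all 8 groups.

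Leaving out each library in turn, the members called ranged over 0 to 1 in siMlx zygotes, siMlx 2-cell embryos and siRfx1 2-cell embryos, 3 to 7 between the siEtv5 stages, 3 to 6 between the siMlx stages, 3 to 6 between the siRfx1 stages, 6 to 7 between the siCtrl stages, 0 to 3 for the siEtv5, 0 to 1 for the siMlx and 0 to 2 for the siRfx1 difference between stages. Some calls rested on a single library. Without siEtv5 zygote replicate 2 the siEtv5 difference between stages called Mga, Mxd1 and Txnip. That fit called 716 of 11165 genes, against 35 of 11095 with all libraries. Without siMlx zygote replicate 1 the siMlx stages called 3 members, and 6077 of 10430 genes, against 7019 of 10393 with all libraries. The log2 fold change of Txnip in siMlx 2-cell embryos ranged from -0.71 to 0.13, that of Mlx between the siCtrl stages from -0.38 to 0.15, and that of Mlxip between the siRfx1 stages from -0.36 to 0.40. Mlx coverage outside the last exon, siMlx minus siCtrl 2-cell embryos, was 0.759 and turned to -1.15 over all exon bases, since nearly all coverage lies in the last exon. Of 1627 values over all members and alternatives, 68 had the opposite sign, none of them for a value called in the main test. The genes called in siMlx zygotes numbered 233, of which 113 higher and 120 lower, and 1042 with FPKM as deposited, of which 88 higher and 954 lower. They numbered 370 in siRfx1 2-cell embryos (221 higher, 149 lower) and 1344 as deposited (149 higher, 1195 lower). FPKM gives no read counts, so no counting interval is given, and in the siRfx1 2-cell libraries a value of 0 says only that the gene was not detected at 119 to 174 Mb.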
